A study of Mus musculus with 4 samples.

Results

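Chemokines are small secreted proteins that draw cells along a concentration gradient by binding G protein-coupled receptors. Activated T cells and natural killer cells secrete a characteristic set of them. CCL3 and CCL4 (macrophage inflammatory proteins 1 alpha and 1 beta) and CCL5 (RANTES) recruit T cells and monocytes, and CCL3 and CCL5 bind the receptor CCR1. CCL1 (I-309 or TCA-3) is the ligand of CCR8, a receptor of Th2 and regulatory T cells, and XCL1 (lymphotactin) is the ligand of XCR1 on cross-presenting dendritic cells. The genes described here are the 5 that encode these proteins, Ccl1, Ccl3, Ccl4, Ccl5 and Xcl1, taken by name from the 26207 genes of the deposited table. All 5 had a row.

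They were read in 4 bulk RNA-seq libraries made from mouse T helper 2 (Th2) cells, the CD4 T cells that make IL-4, IL-5 and IL-13, with spleen given as the tissue. In 2 of them the treatment was PBS and in the other 2 it was 10 µM dopamine, a catecholamine of sympathetic nerves, and the comparison asks which transcripts differ between these treatments. The sources used here give no strain, age or time of exposure, and they do not say whether libraries of a group stem from different mice or cultures. The p-values therefore rest on the scatter of these libraries alone, which may be technical. Libraries are called A and B within each treatment.

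Each value is a normalized count as the authors deposited it, that is, reads of a gene divided by a size factor of its library, and groups are given as mean ± SD of n = 2 libraries. The libraries held 5717408 to 14167357 reads assigned to genes. PBS A was the shallowest, and 1 read there was worth 1.70 normalized counts, against 0.766 to 0.971 in the others. Changes are log2 fold changes of dopamine over PBS computed from log2(value + 1), with a standard error (SE) from limma and an adjusted p from limma with Benjamini-Hochberg adjustment over all 26207 genes. A gene is said to have risen or fallen when its adjusted p was below 0.05. By that rule 21.3% of all genes were called, 14.3% higher (3743 genes) and 7% lower (1834 genes). That split depended on scaling. It was 1832 higher and 3406 lower when libraries were rescaled on abundant genes (mean of 100 or more), which moved the median log2 fold change of all genes from -0.081 to -0.28. It was 2793 and 2426 in edgeR with TMM scaling, and 2013 and 3149 in edgeR with upper-quartile scaling. Changes of the genes below are therefore read relative to shifts of this size.

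Chemokines are classed by the cysteines near the start of the secreted protein. Stretches of coding sequence from GENCODE M21 (GRCm38, the mm10 build) show this, each running from codon 26 to codon 45 counted from the start codon, with cysteine codons in capitals.
Ccl3: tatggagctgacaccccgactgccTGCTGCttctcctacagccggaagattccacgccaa
Ccl4: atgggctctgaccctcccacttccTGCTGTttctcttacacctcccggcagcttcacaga
Ccl5: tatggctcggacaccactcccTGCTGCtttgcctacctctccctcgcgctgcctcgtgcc
Ccl1: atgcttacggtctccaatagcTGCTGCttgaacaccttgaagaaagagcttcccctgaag
Xcl1: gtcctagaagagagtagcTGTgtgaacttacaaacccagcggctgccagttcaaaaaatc
The first 4 carry 2 adjacent cysteine codons, at codons 34 and 35 in Ccl3 and Ccl4 and at 33 and 34 in Ccl5 and Ccl1, the mark of CC chemokines. Xcl1 has 1 in this stretch, at codon 32, as the C class does. Across the whole coding sequence Ccl3 and Ccl4 were the most alike, with 68.4% identical bases, and Ccl5 and Xcl1 the least, with 41.5%. The longest run of bases shared exactly by any 2 of these transcripts was 15, between Ccl1 and Ccl4.

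All 5 chemokine genes were called higher, against the 14.3% of all genes called higher. Both dopamine libraries also lay above both PBS libraries for all 5. That separation was not counted over all genes, and genes not called, such as Lck, show it too. Among genes of the same abundance, 10.5% were called higher and 12.6% lower at a mean of 20 to 100, where Ccl1, Ccl5 and Xcl1 lie, and 34.6% higher and 7.39% lower at a mean of 100 to 1000, where Ccl3 and Ccl4 lie. The median log2 fold change of the 5 was 1.88, against -0.081 for all genes. Ccl3 and Ccl4 had the highest levels and the largest changes, ranking 10 and 6 by fold change among the 11611 genes whose mean reached 20 normalized counts. Xcl1, Ccl5 and Ccl1 were present at lower levels and changed less. In bulk libraries more cells that transcribe a gene cannot be told apart from more RNA per cell.

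**Figure D1:**
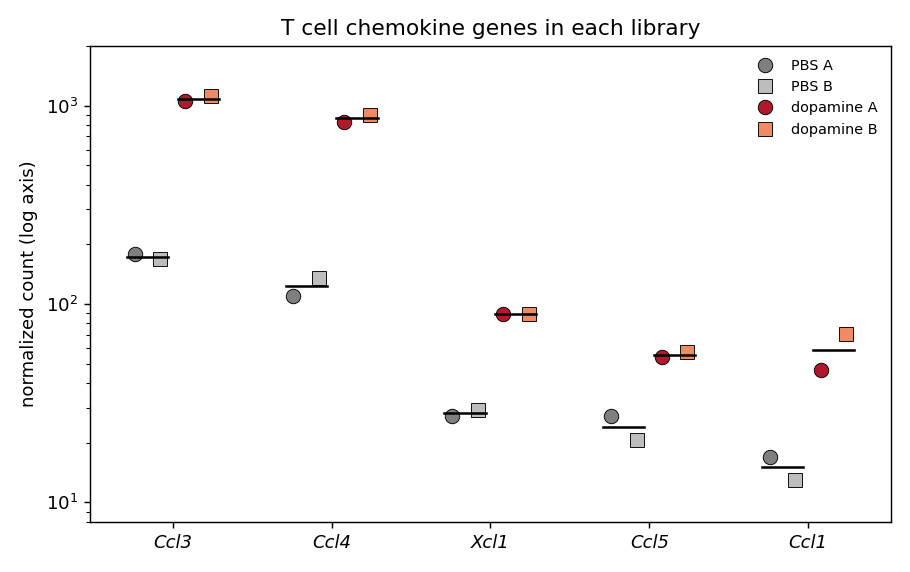
Normalized counts (log axis) of the 5 chemokine genes in each library; circles and squares are single libraries and black lines the group means. For every gene both dopamine libraries lie above both PBS libraries, with the widest separation for Ccl3 and Ccl4.

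Ccl3 stood at 178 normalized counts in PBS A, 169 in PBS B, 1054 in dopamine A and 1118 in dopamine B. Both dopamine libraries thus lay far above both PBS libraries, which differed little from each other. The group means were 173 ± 6.94 and 1086 ± 45.1 (SD, n = 2), a ratio of 6.26, and the log2 fold change was 2.64 (SE 0.10, 95% interval 2.43 to 2.85, limma adjusted p = 3.09e-24). The counts behind these values were 105, 220, 1366 and 1151 reads.

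Ccl4, whose product recruits T cells and monocytes as CCL3 does, was at 110 in PBS A, 135 in PBS B, 829 in dopamine A and 895 in dopamine B. The order of the libraries was the same as for Ccl3 except within PBS. Means were 123 ± 17.3 and 862 ± 47.2 (SD, n = 2), a ratio of 7.03, and the log2 fold change was 2.81 (SE 0.12, 95% interval 2.57 to 3.05, limma adjusted p = 2.24e-23). This was the largest change of the 5 genes. The ratio of Ccl3 to Ccl4 was 1.62 in PBS A, 1.25 in PBS B, 1.27 in dopamine A and 1.25 in dopamine B, so the pair kept nearly the same proportion in 3 of the 4 libraries. The remaining library, PBS A, had 65 Ccl4 reads.

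Xcl1 was at 27.2 in PBS A, 29.1 in PBS B, 88.7 in dopamine A and 89.3 in dopamine B. Both dopamine libraries lay above both PBS libraries. Means were 28.1 ± 1.37 and 89.0 ± 0.435 (SD, n = 2), and the log2 fold change was 1.63 (SE 0.23, 95% interval 1.17 to 2.09, limma adjusted p = 2.46e-07). Reads numbered 16, 38, 115 and 92. Gm20743, an antisense transcript that overlaps the 5′ end of Xcl1, did not pass the test (log2 fold change -1.21, limma adjusted p = 0.296), at no more than 5.36 normalized counts in any library.

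Ccl1 was at 17.0 in PBS A, 13.02 in PBS B, 46.3 in dopamine A and 70.9 in dopamine B. The groups did not overlap, but the dopamine libraries stood further apart, relative to their mean, than for any other member. Means were 15.01 ± 2.80 and 58.6 ± 17.4 (SD, n = 2), with a log2 fold change of 1.88 (SE 0.30, 95% interval 1.28 to 2.48, limma adjusted p = 3.19e-06). It rested on 10, 17, 60 and 73 reads, the fewest of the 5, and the fold change was 1.57 without dopamine B and 2.18 without dopamine A, with the call kept in both cases.

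Ccl5 was at 27.2 in PBS A, 20.7 in PBS B, 54.0 in dopamine A and 57.3 in dopamine B. It had the smallest change of the 5, with means of 23.9 ± 4.59 and 55.6 ± 2.32 (SD, n = 2) and a log2 fold change of 1.20 (SE 0.27, 95% interval 0.66 to 1.73, limma adjusted p = 5.74e-04). Reads numbered 16, 27, 70 and 59. In the authors' deposited table its log2 fold change was 1.25 with an adjusted p of 0.0272, the weakest evidence there for any of the 5. The other deposited log2 fold changes, also from the authors' deposited table, were 2.65 for Ccl3, 2.78 for Ccl4, 1.65 for Xcl1 and 2.00 for Ccl1.

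How the changes differed among members was examined through ratios of normalized counts within each library. The ratio of Ccl3 to Ccl5 was 6.56 and 8.15 in the PBS libraries and 19.5 in both dopamine libraries. That of Ccl3 to Xcl1 was 6.56 and 5.79 with PBS and 11.9 and 12.5 with dopamine. Of the 10 pairs of members, 8 had ratios whose groups did not overlap. The exceptions were Ccl3 with Ccl4 and Xcl1 with Ccl1. The pairs share genes and so are not independent, and pairs of other genes were not examined for comparison. With 2 libraries against 2 an exact 2-sided permutation test cannot go below 0.333, which is what those 8 pairs gave (0.417 adjusted over the 10 pairs), so this test could not call a difference in ratio.

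Levels of different genes are comparable only per length. On the RPKM scale (reads per length of exon and per library depth, with reads assigned to genes as the depth), Ccl3 had 22.8 ± 1.62 with PBS and 128 ± 3.45 with dopamine (SD, n = 2), and Ccl4 had 18.7 ± 2.06 and 118 ± 4.74. In each library these 2 genes made up 82.1% to 91.5% of the summed level of the 5. Xcl1 followed with 5.42 ± 0.0965 and 15.4 ± 0.151. Ccl5 came next with 2.52 ± 0.559 and 5.25 ± 0.142, and Ccl1 was lowest with 0.640 ± 0.139 and 2.23 ± 0.632. The last 2 levels, and so the share of Ccl3 and Ccl4 given above, depend on the gene model. That share is lower over coding transcripts, where the levels of Ccl5 and Ccl1 are higher. GENCODE M21 gives Ccl1 a long noncoding transcript that brings its exons to 2369 bases, against 611 for its longest coding transcript. Over coding transcripts Ccl5 had 9.47 ± 0.257 and Ccl1 8.66 ± 2.45 with dopamine, which did not differ beyond their spread, and 4.55 ± 1.01 and 2.48 ± 0.538 with PBS.

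Of the genes, 4 lie on chromosome 11 among other CC chemokine genes. Ccl3 (83647844 to 83649355, minus strand) and Ccl4 (83662584 to 83664683, plus strand) lie 14.7 kb apart by their first coordinates. Ccl5 (83525778 to 83530518, minus strand) lies 122 kb from Ccl3 in the same measure. Ccl1 (82176657 to 82305690, minus strand, a span that includes the long noncoding transcript) belongs to a separate stretch of the chromosome. Xcl1 is on chromosome 1 (164931644 to 164935527, minus strand). RefSeq's model of Ccl4 starts at 83648624 and so overlaps Ccl3 on the opposite strand. Whether counting used strand is not stated, so reads of such an overlap may not have been told apart.

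The chemokine genes that lie between Ccl5 and Ccl3 were not called higher. Ccl6 and Ccl9, chemokine genes of myeloid cells, start between Ccl5 and Ccl3. Ccl6 was at 131 in PBS A, 98.8 in PBS B, 41.7 in dopamine A and 37.9 in dopamine B, a fall of both dopamine libraries below both PBS libraries (log2 fold change -1.49, SE 0.21, limma adjusted p = 1.69e-07). Ccl9 was at 202, 150, 135 and 137 in the same order and did not pass the test (log2 fold change -0.36, limma adjusted p = 0.0907). Of the 18 other genes that start within 200 kb of a member, 1 was called higher and 2 lower, against 14.3% and 7% of all genes. Their median log2 fold change was -0.64, and 14 of the 18 had a mean below 20 normalized counts. The gene called higher was Taf15, which encodes an RNA-binding protein (log2 fold change 0.42, limma adjusted p = 0.00953). That call ended without PBS A (0.38) or dopamine A (0.35), in DESeq2 (0.42), with upper-quartile scaling in edgeR (0.23) and after rescaling on abundant genes (0.22). Rasl10b, a Ras-like gene at 15.3 normalized counts or fewer, was the other gene called lower (-1.89, limma adjusted p = 0.015), a call that also ended without PBS A (-1.61) or dopamine A (-1.77). Ccl2 and Ccl7, which start within 200 kb of Ccl1, did not pass the test, at 13.02 normalized counts or fewer.

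**Figure D2:**
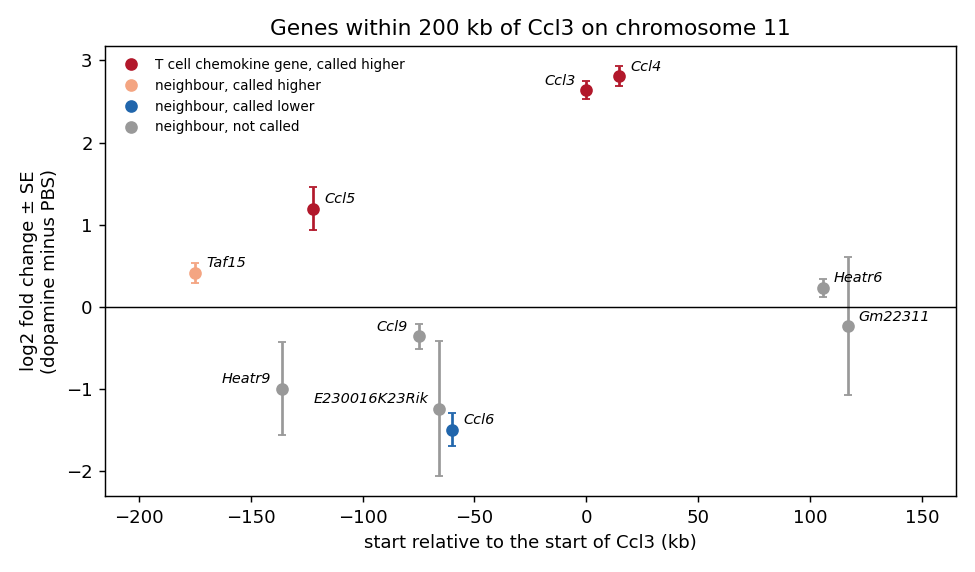
Log2 fold change (point, with SE as bar) of Ccl3 and of the genes that start within 200 kb of it on chromosome 11, by distance of the starts in kb. Ccl5, Ccl3 and Ccl4 are above 0, while Ccl6 and Ccl9, which start between Ccl5 and Ccl3, are at -1.49 and -0.36.

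Other chemokine ligand genes were not called higher. Of 36 other chemokine ligand genes listed, 25 had values, and of these 0 rose and 7 fell by limma, against 14.3% and 7% of all genes. At an unadjusted p under 0.05, 0 were higher and 10 lower. By edgeR with TMM on recovered reads 0 rose and 8 fell, and by DESeq2 0 rose and 4 fell. The 25 had a median log2 fold change of -0.64, and 7 of them had a mean below 5 normalized counts. Their summed level was 2276 to 2310 normalized counts with PBS and 1127 to 1136 with dopamine, whereas the summed level of the 5 T cell chemokine genes was 360 to 366 with PBS and 2071 to 2230 with dopamine.

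Among the ligands that fell, Ppbp and Pf4 encode platelet chemokines. Ppbp was at 482 and 409 with PBS and at 63.3 and 58.3 with dopamine (log2 fold change -2.85, SE 0.14, limma adjusted p = 1.92e-20), and Pf4 had a log2 fold change of -1.46 (SE 0.11). All 8 of the platelet and megakaryocyte markers listed fell, where 7% of all genes were called lower, but Ppbp and Pf4 are themselves on that list. Whether the fall of these ligands goes with that of platelet RNA was not tested. Ccl22, a ligand of the Th2 receptor CCR4, went from 570.0 ± 66.2 to 353 ± 4.33 (SD, n = 2; log2 fold change -0.68, limma adjusted p = 1.83e-06). Cxcl9 and Cxcl11, interferon-inducible ligands of CXCR3, had log2 fold changes of -0.83 and -2.31. The Cxcl9 call ended in DESeq2 (-0.88) and without PBS B (-0.63) or dopamine B (-0.79), and that of Cxcl11 ended without PBS A (-1.79) or dopamine A (-1.95). Cxcl10, the remaining ligand of that receptor and chosen for that reason after its values were seen, did not pass the test (0.27, limma adjusted p = 0.472).

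**Figure D3:**
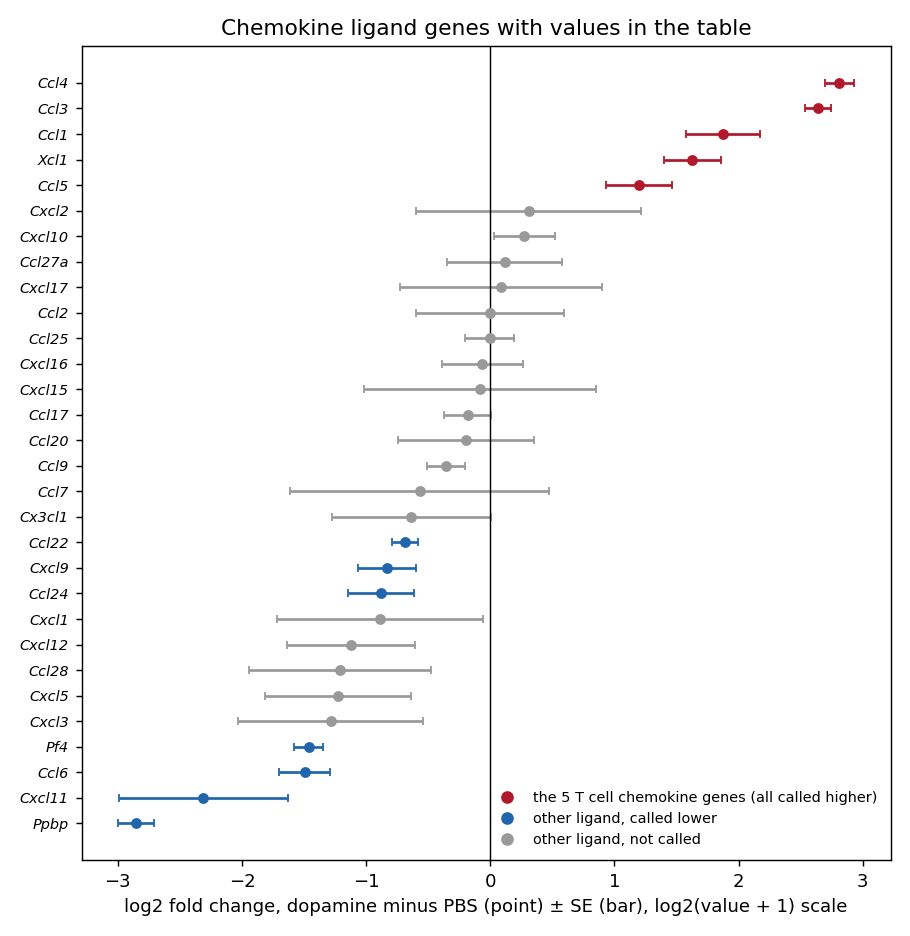
Log2 fold change (point) with SE (bar) for the 30 chemokine ligand genes with values, in order of size; red marks the 5 T cell chemokine genes, blue other ligands called lower and grey other ligands not called. The 5 T cell chemokine genes, from 1.20 to 2.81, are above all 25 others, but the 5 were chosen with earlier results of these data known.

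Chemokine receptor genes did not move in a single direction. Ccr4, which encodes a receptor of Th2 cells, rose from 2240 ± 73.8 to 3228 ± 163 (SD, n = 2; log2 fold change 0.53). Ccr1, which encodes a receptor of CCL3 and CCL5, was at 45.9 and 31.4 with PBS and at 20.8 and 8.74 with dopamine, and fell (-1.42, SE 0.35, limma adjusted p = 0.00205). The Ccr1 call ended in DESeq2 (-1.34) and without PBS A (-1.15) or dopamine B (-0.84).

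Ccr8, the receptor of CCL1, overlapped between groups, with 59.5 and 74.3 in the PBS libraries and 67.9 and 94.2 in the dopamine libraries. Its log2 fold change of 0.26 (95% interval -0.15 to 0.67, limma adjusted p = 0.389) did not pass the test. Xcr1, the receptor of XCL1, was near the limit of detection at 6.17 to 11.9 normalized counts (log2 fold change -0.67, 95% interval -1.68 to 0.35, limma adjusted p = 0.377). Ccr3 was lower still, at 2.31 normalized counts or fewer, where no difference was detectable.

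Transcription factors known to act on chemokine genes in activated lymphocytes were taken from a list of 35, of which 34 had values. Of these 18 rose and 2 fell, with a median log2 fold change of 0.33. Of the 20 factors with a mean of 100 to 1000, 10 rose, where 34.6% of all genes were called higher, and of the 8 with a mean of 1000 or more, 6 rose, where 51.6% of all genes were called higher and 9.3% lower. The 6 factors below a mean of 100 included 2 that rose. Irf4, which encodes a factor induced by antigen receptor signals, had a log2 fold change of 0.94 (SE 0.06). The AP-1 gene Junb had 1.24 (SE 0.08), the NF-kB gene Nfkb2 had 1.16 (SE 0.08) and Irf8 had 1.15 (SE 0.08). Tbx21, which encodes the Th1 factor T-bet, went from 663 ± 31.2 to 1299 ± 86.9 (SD, n = 2; 0.97, limma adjusted p = 2.76e-12), and Bhlhe40 had 1.06 (SE 0.10). When the libraries were rescaled on abundant genes, 16 of these factors rose and 6 fell, and upper-quartile scaling in edgeR gave 16 and 7. Klf13, which encodes a factor named for its action on the CCL5 promoter in T cells and was chosen after its values were seen, did not pass the test (log2 fold change -0.11, limma adjusted p = 0.489).

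Most other cytokine genes of activated T cells also rose. Of 20 listed, 19 had values, 14 rose and 0 fell, against 14.3% and 7% of all genes, with a median log2 fold change of 0.92. Of the 12 with a mean of 100 to 1000, 9 rose, where 34.6% of all genes were called higher. By edgeR with TMM 13 rose and 0 fell, by DESeq2 12 rose and 0 fell, and at an unadjusted p under 0.05 by limma 15 were higher and 0 lower. Ifng, which is known to be secreted together with these chemokines, was at 61.2 in PBS A, 59.0 in PBS B, 239 in dopamine A and 244 in dopamine B (log2 fold change 1.99, SE 0.16, limma adjusted p = 9.63e-14). Il2 (2.18), Il4 (2.19), Il13 (1.61), Il24 (3.26) and Tnf (0.92) were also among the 6 with the smallest p.

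Genes with the pattern most like each chemokine were found by the distance between log2(value + 1) profiles over the 4 libraries, each profile centred on its mean, among the 10674 genes whose mean reached 20 and that are not predicted gene models (names in Gm or Rik). This is a description over 4 libraries that mostly orders genes by the size of their difference. Ccl3 was closest to the connexin gene Gja1 (distance 0.137), followed by Csf2, which encodes GM-CSF (0.306), and Ccl4 (0.311). For Ccl4 the closest gene was Ccl3, then the caveola gene Cavin3 (0.315) and Gja1 (0.385). Xcl1 was closest to the zinc transporter gene Slc39a7 (0.0209), the type 2 cytokine gene Il13 (0.0243) and Tmem163 (0.0267). Ccl1 was closest to Erdr1 (0.307), Rmrp (0.348), the RNA of a mitochondrial RNA-processing ribonuclease, and the light chain segment Iglc2 (0.374), and Ccl5 to N4bp3 (0.0804), the small nucleolar RNA gene Rnu3a (0.0810) and Mid1ip1 (0.0939).

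These chemokines are made by several kinds of blood cell, so marker lists of other cells were read in the same libraries. Helper T cell markers summed to 32455 to 34226 normalized counts with PBS and 35917 to 37348 with dopamine, far above any other marker list. By limma 5 of these 10 markers rose and 1 fell, against 14.3% and 7% of all genes. Their median log2 fold change was 0.22, against 0.21 for all genes with a mean of 1000 or more. Of those genes 51.6% were called higher, and Cd3d, Cd3g, Trbc1 and Trbc2, which rose, lie in that range. The Trbc2 call (0.24) ended in 5 of the alternative settings. Natural killer cells, a main source of all members except Ccl1, had 8 listed markers with 7 measured, of which 0 rose and 2 fell by limma (0 higher and 3 lower at an unadjusted p under 0.05). Their sum was 142 to 206 with PBS and 109 with both dopamine libraries. The lower sum came from the 2 that fell, Tyrobp and Fcer1g, signalling adaptor genes that myeloid cells and basophils also express. The Fcer1g call (log2 fold change -0.67) ended in DESeq2 (-0.67) and without PBS A (-0.47) or dopamine A (-0.52). The other 5 summed to 59.5 and 20.7 with PBS and to 41.7 and 35.0 with dopamine, which overlapped. None of them passed the test by limma. Their log2 fold changes were 0.75 for Klrd1, 0.71 for Klrk1, -0.20 for Klre1, -0.49 for Ncr1 and -1.16 for Klrb1c. The defining gene Ncr1 was at 10.2 and 1.53 with PBS and at 3.86 and 1.94 with dopamine. Macrophage and monocyte markers, of which 11 of 12 had values, summed to 375 to 377 with PBS and 233 to 265 with dopamine, with 0 higher and 3 lower by limma (0 and 4 at an unadjusted p under 0.05). Ly6c2, the most abundant of them, was not called and overlapped between groups (log2 fold change -0.10), and Cd68 was not called (-0.36). Fcgr1 and C1qb, picked after their values were seen, were each at 0 in 1 dopamine library. With PBS they were at 6.9 normalized counts or fewer, and neither was called. Basophil and mast cell markers fell in 8 of 10 cases (0 rose), with sums of 2248 to 2633 and 825 to 899.

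Sums of some lists were higher with dopamine, as those of the chemokine genes were. CD8 T cell markers, of which 5 of 6 had values, summed to 404 to 413 normalized counts with PBS and 718 to 733 with dopamine, with 3 higher and 0 lower. Eomes, also a regulator on the list above, went from 136 ± 4.23 to 289 ± 9.13 (SD, n = 2). Cd8a, which encodes the defining coreceptor chain and was named after its values were seen, was at 30.6 and 24.5 with PBS and at 116 and 103 with dopamine. The other list genes Cd8b1 (log2 fold change 0.41, limma adjusted p = 0.106) and Klrc1 (-0.61) were not called. The Nkg7 call (0.44) ended in 6 of the alternative settings. Gamma-delta T cell markers summed to 123 to 161 and 214 to 239, with 2 of 8 higher and 1 lower. The higher sum came from the 2 called higher, Tcrg-C2 (log2 fold change 2.26) and Tcrg-C4 (1.34). Il23r fell (-1.76), and Trdc was among the 5 not called (0.090). B cell markers summed to 169 to 204 and 415 to 427, with 4 of 8 higher and 0 lower. Dendritic cell markers summed to 307 to 345 and 413 to 461, with 1 of 8 higher and 1 lower. The higher sum came from H2-Ab1, an MHC class II gene that B cells also express, and the other 7 summed to 110 and 123 with PBS and to 118 and 103 with dopamine, which overlapped. Neutrophil markers, 6 of 8 with values, summed to 301 to 323 and 62.1 to 81.8, with 0 higher and 3 lower. The lower sum came mostly from Mpo, at 267 and 303 with PBS and at 72.5 and 60.2 with dopamine. Of the 6, 4 had a mean below 5 normalized counts. S100a8 and S100a9, picked after their values were seen, were each at 0 in dopamine B and at 6.13 normalized counts or fewer with PBS. Ly6g was at 0 in both PBS B and dopamine B. What part these cells have in the chemokine result was not tested.

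**Figure D4:**
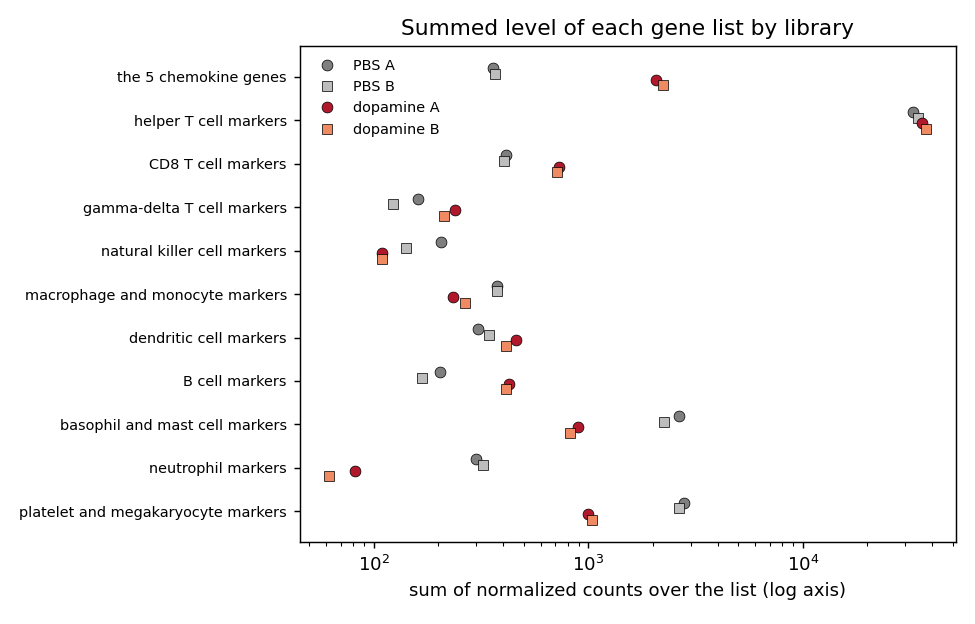
Sum of normalized counts (log axis) over each gene list in each library. The sum over the chemokine genes is higher with dopamine, as are those of CD8 and B cell markers. That of helper T cell markers is slightly higher. The median log2 fold change of that list is 0.22, near the 0.21 of all genes with a mean of 1000 or more. The gamma-delta sum is also higher, through Tcrg-C2 and Tcrg-C4, as is that of dendritic cell markers, through H2-Ab1. Macrophage, basophil and platelet marker sums are lower, as is that of neutrophil markers, mostly through Mpo. That of natural killer cell markers is lower through Tyrobp and Fcer1g.

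Promoter sequence was available in RefSeq's table (GRCm38.p6) for 3 of the 5 genes, Ccl1, Ccl3 and Xcl1, and not for Ccl4 and Ccl5. The windows are shown as background, and no link between a match and the changes was tested. Each starts 250 bases before the transcription start, and that of Xcl1 stops 44 bases before it, where annotated exons begin. They are at chr11:82179813-82180062, chr11:83649379-83649628 and chr1:164935566-164935772, all on the minus strand and written 5′ to 3′ along the gene. Capitals mark matches to the NFAT core GGAAA and to the NF-kB pattern (GGG, any 5 bases, CC) on either strand.
Ccl1: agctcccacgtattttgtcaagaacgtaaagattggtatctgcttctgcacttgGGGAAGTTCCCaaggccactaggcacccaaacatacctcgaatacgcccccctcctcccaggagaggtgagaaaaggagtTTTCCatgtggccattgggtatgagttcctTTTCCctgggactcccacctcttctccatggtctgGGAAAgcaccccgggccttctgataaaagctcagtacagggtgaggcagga
Ccl3: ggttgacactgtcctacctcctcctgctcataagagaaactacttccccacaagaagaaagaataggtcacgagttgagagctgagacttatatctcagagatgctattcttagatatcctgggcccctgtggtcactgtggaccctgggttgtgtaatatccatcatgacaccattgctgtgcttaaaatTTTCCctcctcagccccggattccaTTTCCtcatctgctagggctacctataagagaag
Xcl1: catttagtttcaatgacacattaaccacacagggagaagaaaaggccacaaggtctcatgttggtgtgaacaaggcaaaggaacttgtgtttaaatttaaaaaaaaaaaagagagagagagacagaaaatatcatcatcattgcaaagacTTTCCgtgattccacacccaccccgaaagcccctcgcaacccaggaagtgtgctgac
The NFAT core matched 3 times in Ccl1, 2 times in Ccl3 and 1 time in Xcl1, and 55.6% of all 32851 promoter windows of 250 bases hold it. The NF-kB pattern matched in Ccl1 on both strands, in overlapping positions that start 196 and 195 bases before the transcription start, and 45.8% of all windows hold it. The AP-1 site TGANTCA (6.75% of windows), the cAMP response element TGACGTCA (1.55%) with its shorter form TGACG (17.8%), both searched on either strand, and the TATA box TATAAA on the gene's strand (7.59%) had no match in the 3 windows.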

How the data were processed

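Libraries were made with a stranded mRNA kit, per the labels' protocols. Per the submitters' processing notes, the tools were FastQC 0.11.2, TopHat2 2.0.13, HTSeq 0.6, DESeq2 and R 3.6.2 with mm10; they name neither an annotation nor a strand option for HTSeq. The deposited table gives the authors' normalized counts, a signal of reads divided by 1 size factor per library, per the file headers. It also holds the authors' log2 fold changes with their errors, the authors' Wald statistic (a score), and p-values before and after adjustment, as deposited. Its columns carry the numbers 2 and 3 and the titles 1 and 2, so columns were matched to groups only, and A and B stand for these columns. No other sample had a column (0 columns), and 26 names had been turned into dates.

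Whole reads were recovered from the steps of the values (100% whole within 0.01). The main test was limma-trend (limma 3.58.1, R 4.3.3), 2-sided and unfiltered, on log2(value + 1), which understates changes of low genes. It drew variances toward those of like genes with 42.4 prior degrees of freedom. Alternatives were edgeR 4.0.16 (quasi-likelihood) and DESeq2 1.42.0 on recovered reads, other scalings, 0.1 as pseudocount, a minimum mean of 20, a block by column number, and leaving out each library. In edgeR on recovered reads with TMM and filterByExpr, 5219 genes were called. The tests were checked on simulated reads. A chi-square over genes gave 2.09 (PBS) and 2.69 (dopamine) per degree of freedom between libraries of a group, so neither pair looks like 1 library.

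The members and lists were chosen with earlier results of these data known; the lists come from general knowledge. Named genes are the members, up to 6 called genes with the smallest p per list, the receptors of the members, the most abundant markers, called neighbours and the 3 genes of nearest pattern, leaving out predicted gene models; some markers under this rule are given through their lists only, and a result on the receptor list is not reported here. Locations and lengths are from GENCODE M21.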

Additional observations from a re-analysis of the deposited data

How the results depend on the processing

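All 5 chemokine genes were called higher under all 14 alternatives. The lowest and highest log2 fold changes were 2.44 and 2.68 for Ccl3, 2.59 and 2.95 for Ccl4, 1.43 and 1.68 for Xcl1, 1.57 and 2.18 for Ccl1 and 1.00 and 1.38 for Ccl5, and the largest adjusted p was 0.0262, for Ccl5 in DESeq2 on recovered reads. DESeq2 called fewer genes: 3273 in all, 4 other ligands (0 higher) and 1 neighbour. Leaving out a library gave 2914 to 4299 genes (the lowest without PBS A, and 3276 without dopamine B), 5 to 7 other ligands and 1 to 4 neighbours, with 1 neighbour both without PBS A and without dopamine A; the cause was not tested beyond the loss of a library. The sample names share replicate numbers, but the number marks no stated pairing. With a replicate block by column number, 6999 genes and 5 neighbours were called and no member's call changed, and the differences between libraries numbered 2 and 3 correlated at 0.125 between the groups over 11611 genes, across genes that are not independent. Lck, the abundant kinase gene on the helper T cell list, was not called at 0.14 and turned to -0.054 with upper-quartile scaling and -0.058 after rescaling on abundant genes. Ly6c2, on the monocyte list, was not called at -0.10 and ranged from -0.24 to 0.032 when a library was left out, being above 0 without dopamine A. The length of the longest coding transcript, an alternative chosen after seeing the data, moved the per-length level of Ccl1 to 2.48 with PBS and 8.66 with dopamine and that of Ccl5 to 4.55 and 9.47. Depth limits Ccl1, Ccl5 and Xcl1 most, with 10 to 38 reads in each PBS library.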
